A study of Mus musculus with 19 samples.

Results

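Aff1, Aff2, Aff3, Aff4, Hivep1, Hivep2 and Hivep3 are the 7 mouse genes of the Aff family (4 genes) and the Hivep or Schnurri family (3 genes). They were taken by symbol from the count tables of an RNA sequencing experiment on the hippocampus. They are 7 of the 48709 genes in those tables, and all 7 were among the 19297 genes with enough reads to test. Aff2 and Hivep3 had been picked by the study for quantitative PCR from a module of co-expressed genes found in the same libraries, so their direction here is no independent evidence. The other 5 are their paralogs.

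AFF proteins are large nuclear scaffolds. AFF1 and AFF4 hold together the super elongation complex, in which the kinase CDK9 with a cyclin T (P-TEFb) and the ELL proteins release paused RNA polymerase II into the gene body. AFF2, also called FMR2, is silenced in an X-linked intellectual disability that arises at the FRAXE fragile site, and is a different gene from Fmr1. AFF3 (LAF4) is a related nuclear protein expressed in lymphoid cells and brain. HIVEP proteins are very large zinc finger proteins that bind the kappa-B-like elements that NF-kB recognises, and their fly homolog Schnurri acts with SMAD proteins downstream of BMP signals.

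The study treated 7-month-old mice by injecting lipid nanoparticles with oligonucleotides into the dorsal hippocampus, dissected CA1 and sequenced its polyadenylated RNA, with 1 library per sample. WT control (n = 6) was the wild-type littermates. They were read as having received control oligonucleotides, following the study's description, although the titles of these libraries also carry the name of the mixture. APP control (n = 6) was APPPS1-21 mice with control oligonucleotides, and APP anti-miR-mix (n = 7) was APPPS1-21 mice given inhibitors of the microRNAs miR-148a-3p, miR-146a-5p and miR-181a-5p. APPPS1-21 mice carry human mutant APP and presenilin 1 transgenes under the neuronal Thy1 promoter and deposit amyloid. All 3 groups therefore had surgery, nanoparticles and an oligonucleotide, and no group was untreated. The libraries held 19362343 to 37018917 counted reads.

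The labels were checked with the transgene. Thy1, whose expression cassette drives the transgenes, had normalized counts of 18117 to 20734 in the wild types, whereas APP control ranged from 36153 to 62866 and APP anti-miR-mix from 43203 to 54141, with no overlap between genotypes. App ranged from 49038 to 54801 in WT control and from 65315 to 80752 over both APP groups. The 4 CA1 marker genes (Wfs1, Fibcd1, Mpped1 and Pou3f1) summed to 20634 to 34627 normalized counts over the 19 libraries, and the 5 dentate granule cell markers to 978 to 3397. In 2 libraries, WT control 5 and APP anti-miR-mix 6, choroid plexus markers stood high (2434 and 1703, against at most 920.2 elsewhere). WT control 1 and WT control 5 had the highest sums of plaque-associated microglia genes among the wild types (2607 and 2555, against at most 1538). The sum of 3 blood markers was high in APP control 5 (2333), APP anti-miR-mix 4 (1711) and APP control 6 (1282), against at most 914.1 elsewhere, and APP control 5 had the lowest microglial sum of the APP libraries (16680). Results that change without these libraries are given both ways.

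The inhibitors pair with the seed of each microRNA, the bases 2 to 8 that direct it to matching sites in 3′ untranslated regions (UTRs). The mature microRNAs, as given by RefSeq on GRCm38.p6, are printed 5′ to 3′ with the seed in capitals because the sites in the members are read against them.
miR-181a-5p: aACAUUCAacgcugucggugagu
miR-146a-5p: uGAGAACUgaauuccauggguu
miR-148a-3p: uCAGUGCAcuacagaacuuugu
The inhibitors, as designed by the study, follow 5′ to 3′, with the bases that pair with the seed in capitals. The inhibitor of miR-146a-5p covers 7 seed bases, and each of the others covers 6.
anti-miR-181a-5p: actcaccgacagcgtTGAATG
anti-miR-146a-5p: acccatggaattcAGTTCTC
anti-miR-148a-3p: caaagttctgtagTGCACT
control oligonucleotide: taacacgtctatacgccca

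The seed matches, TGAATGT for miR-181a-5p, AGTTCTC for miR-146a-5p and TGCACTG for miR-148a-3p, were searched on the transcript strand of the longest annotated 3′ UTR of each member, in GENCODE M21 transcripts. This found 8 matches in 5 members, and none of the 8 was followed by the A that makes an 8mer. Aff3 and Hivep3 had no match in their longest 3′ UTR, and Hivep3 had 1 for miR-181a-5p in another of its annotated 3′ UTRs. The sites of the genes in the study's own predicted target lists, Aff1, Aff2 and Hivep1, are shown with 1 site of Hivep2, the member with the highest level. Capitals mark the seed match and coordinates are those of the match on GRCm38 (mm10).
Aff1, miR-181a-5p, chr5:103854702-103854708, plus strand: atttttttcTGAATGTgatcat
Aff2, miR-146a-5p, chrX:69867916-69867922, plus strand: atttgggaaAGTTCTCtttcat
Hivep1, miR-148a-3p, chr13:42184839-42184845, plus strand: atgatatgtTGCACTGttaaat
Hivep2, miR-148a-3p, chr10:14150808-14150814, plus strand: gcagtgctgTGCACTGcccatg
Hivep3 was also in the study's list for miR-148a-3p, although none of its annotated 3′ UTRs held the match TGCACTG. Sites that pair with fewer bases of the seed were not searched. The match in Aff2 lay 85 bases after the stop codon in an annotated UTR of only 206 bases, and 1.41% of the 778 tested genes with a UTR of like length (within 20%) held such a match. For Hivep1, 6.13% of 1485 genes with a like UTR held a miR-148a-3p match, and for Hivep2 16.2% of 2365. Aff1 had a UTR of 4499 bases, in which a miR-181a-5p match is common (41.8% of 1087 genes). Aff1 also held 2 matches for miR-148a-3p, and 36.9% of the 1087 genes held at least 1. Aff4, with a UTR of 6315 bases, held 1 match for each of these microRNAs. Of 487 genes with a like UTR, 56.7% (miR-181a-5p) and 44.4% (miR-148a-3p) held at least 1. A match is a sequence, not a measured interaction.

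Levels between genes were compared as RPKM, the reads per kilobase of annotated exon scaled to the total of the library, since the exonic lengths ran from 6654 bases (Aff3) to 17627 bases (Hivep3). In WT control, Hivep2 was highest at 31.5 ± 1.36 RPKM (SD, n = 6), followed by Aff4 at 20.4 ± 1.29. Aff3 (11.5 ± 0.541) and Hivep1 (10.5 ± 2.14) had overlapping ranges, and so did Hivep1 and Hivep3 (6.82 ± 0.62). Aff1 (2.84 ± 0.305) and Aff2 (1.48 ± 0.144) were lowest, each separate from its neighbours in this order. The order was the same with the length of the longest coding transcript in place of all exons, which raised each level, to 43.9 RPKM for Hivep2 and 2.38 RPKM for Aff2.

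**Figure D1:**
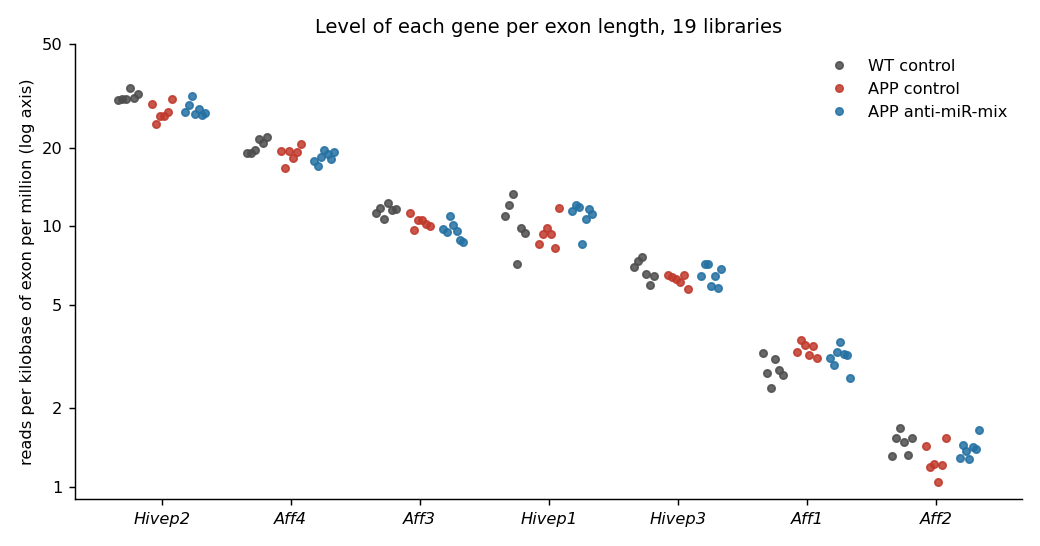
Level of each member per exon length in RPKM, on a log axis, with 1 point per library and the groups in colour. Hivep2 was highest (31.5 RPKM in WT control) and Aff2 lowest (1.48 RPKM). Hivep1 and Aff3 overlap, and in APP anti-miR-mix the mean of Hivep1 (11 RPKM) lies above that of Aff3 (9.62).

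Within the Hivep family, Hivep2 made up 64.7 ± 4.26% of the summed RPKM in WT control, Hivep1 21.4 ± 3.75% and Hivep3 14.0 ± 0.797%. Within the Aff family, Aff4 made up 56.3 ± 1.46%, Aff3 31.8 ± 0.942%, Aff1 7.85 ± 0.85% and Aff2 4.1 ± 0.479%. The summed RPKM of the Aff family was 36.2 ± 1.7 for WT control, 34 ± 1.59 for APP control and 32.6 ± 1.32 for APP anti-miR-mix. That of the Hivep family was 48.8 ± 1.81, 43.3 ± 2.7 and 45.7 ± 2.94. Aff1 made up 9.96 ± 0.998% of its family in APP control and 9.64 ± 0.74% with the mixture, and no other Aff member had a higher mean share in both APP groups than in WT control. All 7 are long genes, from 71.0 kb (Aff4) to 507.7 kb (Aff2), against a median of 24.8 kb over 15486 tested protein-coding genes. Reads were enough for the spread between libraries to exceed counting error: the coefficient of variation in WT control was 19% for Hivep1, against 1.94% from counting alone, 6.14% for Hivep2, against 0.906%, and 10.6% for Aff1, against 3.63%.

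The first comparison asked how these genes differed between the genotypes: APP control against WT control. Transgene expression and amyloid deposition cannot be told apart in it. Hivep2 fell, and it was the only member of the 7 that passed the test (DESeq2, Benjamini-Hochberg adjusted p under 0.05), against 4.71% of all 19297 genes in either direction and 1.05% called lower. The 6 others did not pass, and 5 of them had a log2 fold change below 0 while Aff1 was above 0. Without adjustment, 6 of the 7 had a p under 0.05, all but Hivep1, against 13.7% of all genes. The median log2 fold change of the members was -0.17, against -0.012 over all genes tested. The counts below are normalized by library size factors, and because this is bulk tissue, fewer cells of a type and less RNA per cell cannot be told apart.

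**Figure D2:**
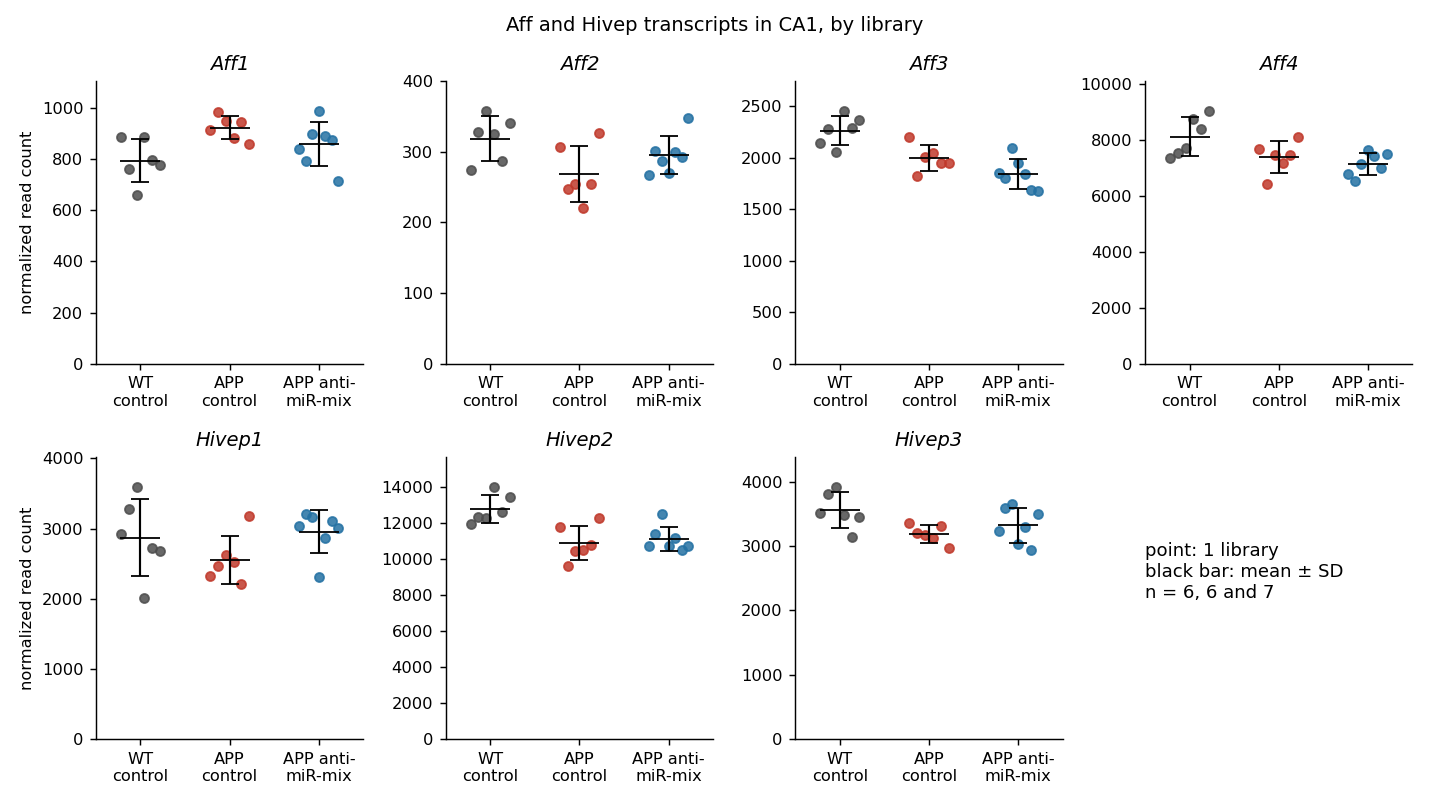
Normalized read counts of the 7 members in each library (points), with mean ± SD (black), for WT control, APP control and APP anti-miR-mix. For Hivep2, 5 of the 6 APP control libraries lie under the lowest WT control library (11981), and for Aff1 4 of the 6 lie above the highest (884.2).

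Hivep2 (ENSMUSG00000015501, chr10:13966075-14151374, plus strand) encodes a brain-expressed transcription factor whose loss in people causes intellectual disability. Its normalized count in WT control was 11981 at the lowest, 12489 at the median and 14022 at the highest. In APP control these were 9641, 10668 and 12277. The groups met only at the top, as 5 of the 6 APP control libraries were below every wild-type library. The log2 fold change was -0.23 ± 0.061 (SE, 95% interval -0.35 to -0.11), so that it fell by 14.6%, with a DESeq2 adjusted p of 0.00707. edgeR's quasi-likelihood test gave an adjusted p of 0.036, and the exact two-sided permutation test over the 6 and 6 libraries gave an unadjusted p of 0.00433. Hivep2 passed in all 19 fits that left out 1 library, with DESeq2 adjusted p from 0.000376 to 0.0378. The normalized table deposited with the counts had been adjusted for a whole number from 1 to 5 per library, whose meaning was not given. For 4 of these numbers both groups had libraries, and Hivep2 was lower in APP control within all 4, by 0.023 to 0.42 on the log2 scale. Exons of Hivep2 overlap those of the opposite-strand genes Gm26835 (8 to 26 counts) and Gm28289 (0 counts). The kit does not mark strand, so reads over the shared bases could come from either strand, and how such reads were counted was not given.

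Hivep3 (ENSMUSG00000028634, chr4:119733784-120138045, plus strand), also known as Schnurri-3, is best known as a brake on bone formation. Its lowest, median and highest normalized counts were 3142, 3502 and 3915 in WT control and 2962, 3191 and 3356 in APP control. Only 2 APP control libraries lay below every wild-type library. This gave a log2 fold change of -0.15 ± 0.063, with a DESeq2 adjusted p of 0.165. It passed only without WT control 5 (-0.19, DESeq2 adjusted p = 0.0496), without WT control 5 and APP anti-miR-mix 6 together (0.0253) and without WT control 1 and 5 together (0.0493). The primers of the study's PCR (ccctctgacacagccttga and gcttggtttgtgcctctgat, forward and reverse, 5′ to 3′) matched 1 of its 10 transcripts, across exons 2 and 3 with a product of 96 bases, whereas the counts cover all its exons. Hivep3 shares 78 exonic bases with AL607142.1 on the same strand, which was not in the count tables.

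Hivep1 (ENSMUSG00000021366, chr13:42052021-42192537, plus strand), the founding member of the family, had the widest spread of the 7 in WT control, relative to its mean. Its lowest, median and highest normalized counts were 2010, 2825 and 3591 in WT control, so the wild types alone spanned the whole range of the 19 libraries. In APP control they were 2216, 2491 and 3173, within the range of the wild types. A log2 fold change of -0.17 ± 0.118 did not pass (DESeq2 adjusted p = 0.603), and it ran from -0.25 to -0.092 with single libraries left out. WT control 4 had the lowest Hivep1 of all libraries and also the lowest sum of 3 CA3 pyramidal neuron markers (394.9 normalized counts, against 499.3 to 937.1 elsewhere). That list was singled out after its values were seen, and its part in the spread of Hivep1 was not tested.

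Aff2 (ENSMUSG00000031189, chrX:69360294-69868037, plus strand) had the fewest reads, 217 to 419 per library. Its lowest, median and highest normalized counts were 273.7, 326.2 and 357.3 in WT control and 220.3, 254.8 and 327.0 in APP control. Here 4 of the 6 APP control libraries lay below every wild-type library, while APP control 1 and 6 lay among them. The log2 fold change of -0.24 ± 0.0998 was as far from 0 as that of Hivep2, with a wider error, and did not pass (DESeq2 adjusted p = 0.167). Without APP control 6 it was -0.31 (DESeq2 adjusted p = 0.0269), and without WT control 1 and 5 together -0.33 (0.036). The study's primers for Aff2 (tgtgctactttcaaggggatatcta and aagagccatattggcgacag) matched 1 of 4 transcripts, across exons 12 and 13, with a product of 90 bases. Aff2 shares 48 exonic bases with Gm14705 on the opposite strand, which had 0 to 2 counts.

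Aff3 (ENSMUSG00000037138, chr1:38177326-38664955, minus strand) had lowest, median and highest normalized counts of 2058, 2282 and 2450 in WT control and 1821, 1980 and 2196 in APP control. All APP control libraries but APP control 1 lay below the wild types. The log2 fold change of -0.18 ± 0.062 was just short of the threshold (DESeq2 adjusted p = 0.0604). It passed in 5 of the 19 fits that left out 1 library: without APP control 1 (0.0196), WT control 1 (0.0405), WT control 3 (0.029), APP anti-miR-mix 3 (0.0329) or APP anti-miR-mix 7 (0.0497). It also passed with the replicate number as a block (DESeq2 adjusted p = 0.0477).

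Aff4 (ENSMUSG00000049470, chr11:53350833-53421830, plus strand), the core scaffold of the super elongation complex, had lowest, median and highest normalized counts of 7352, 8030 and 9017 in WT control and 6405, 7459 and 8104 in APP control. The ranges overlapped, with 3 of 6 wild types above every APP control library and 2 of 6 APP control libraries below every wild type. A log2 fold change of -0.14 ± 0.064 did not pass (DESeq2 adjusted p = 0.269), with any 1 library left out either (0.11 to 0.591).

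Aff1 (ENSMUSG00000029313, chr5:103692374-103855322, plus strand), the other scaffold of that complex and a fusion partner of MLL in leukaemia, was the single member above 0. Its lowest, median and highest normalized counts were 660.9, 785.4 and 884.2 in WT control and 860.1, 927.7 and 983.7 in APP control. In APP control 4 of the 6 libraries lay above all wild types, and the other two lay at the top of the wild-type range. On the log2 scale the difference was 0.21 ± 0.079, and it did not pass (DESeq2 adjusted p = 0.1). Without WT control 1 it did (0.25, DESeq2 adjusted p = 0.0392). It also passed with the replicate number as a block (DESeq2 adjusted p = 0.0488), with a linear term for Xist (0.0284) and with limma on the deposited table (limma adjusted p = 0.0395).

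Cell type markers moved between the same groups. All 10 neuronal markers had a log2 fold change below 0 in APP control against WT control (median -0.13), of which Gad1 and Gad2, the enzymes that make GABA, fell. Their sum ranged from 314701 to 381952 normalized counts in WT control and from 306556 to 339147 in APP control. The sum of the 8 microglial markers was 11229 to 17424 in WT control and 16680 to 34986 in APP control, and 6 of the 8 rose. All 5 plaque-associated microglia genes rose, with sums of 1061 to 2607 and 2993 to 13900. Of the 5 endothelial markers 2 rose, with sums of 2335 to 2881 in WT control and 2761 to 3638 in APP control, and of the 6 astrocyte markers 1 rose, Gfap, with sums of 145710 to 191592 and 155702 to 212638. None of the markers of these 5 lists was at 0 in any library. Lists of hippocampal fields and of other cell types and tissues held no gene that passed, but their median log2 fold changes were -0.12 for CA1 pyramidal neurons (4 of 4 genes below 0), 0.30 for CA3 pyramidal neurons (3 of 3 above 0), 0.19 for dentate granule cells (4 of 5 above 0), -0.022 for oligodendrocytes, 0.0085 for their precursors, 0.83 for blood (3 of 3 above 0) and -0.42 for choroid plexus (4 of 5 below 0). Their sums overlapped between the groups, for CA1 at 23112 to 34627 normalized counts in WT control and 20634 to 30710 in APP control, and for CA3 at 394.9 to 725.4 and 619.1 to 937.1. The part of all these lists in the differences of the members was not tested.

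The second comparison asked what the inhibitor mixture changed in APPPS1-21 mice: APP anti-miR-mix against APP control. No member passed, and neither did any other gene (0.0% of 19297 by DESeq2 and 0 genes by edgeR). Without adjustment 552 genes had a p under 0.05, 2.86%, and no member was among them. The intervals of the members give the size of change that these libraries could still hold. For Hivep2 the log2 fold change was 0.027, with a 95% interval of -0.089 to 0.14, and for Hivep3 0.057 (-0.062 to 0.18). For Aff4 it was -0.048 (-0.17 to 0.073) and for Aff1 -0.11 (-0.25 to 0.042). These 4 intervals exclude a change as large as 0.3 on the log2 scale in either direction.

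The widest intervals belonged to Aff2 and Hivep1. Aff2 had lowest, median and highest normalized counts of 266.7, 292.5 and 347.8 in APP anti-miR-mix, and its log2 fold change was 0.14 (-0.051 to 0.33). Hivep1 had 2311, 3033 and 3201 there, and 6 of the 7 libraries lay above 5 of the 6 APP control libraries. Its log2 fold change was 0.21 (-0.012 to 0.44), with a DESeq2 unadjusted p of 0.0632 and an adjusted p of 1.0. Aff3 had 1677, 1845 and 2090, with 3 of 7 libraries below every APP control library, and a log2 fold change of -0.11 (-0.23 to 0.0027, unadjusted p = 0.0556, adjusted p = 1.0).

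Seed matches were set beside the fold changes of this comparison. Aff1, with 3 matches, was at -0.11, Aff4, with 2, at -0.048, and Aff2, Hivep1 and Hivep2, with 1 each, at 0.14, 0.21 and 0.027. Aff3 and Hivep3, with none in the longest UTR, were at -0.11 and 0.057. Fold changes of both signs occurred with and without a match in the longest UTR, but only Aff3 had no match in any annotated UTR. The match of Hivep3 in another UTR is for miR-181a-5p, whereas the study lists it for miR-148a-3p. Whether matches bear on the fold changes was not tested.

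**Figure D3:**
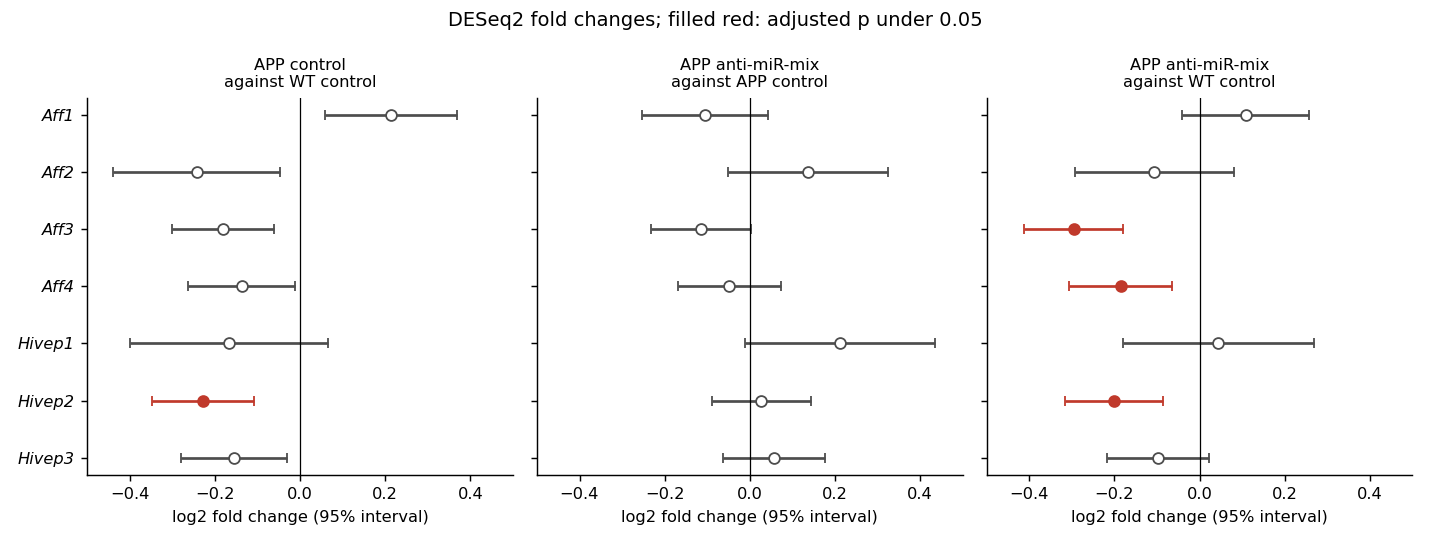
Log2 fold change of each member with its 95% interval in the 3 comparisons, from DESeq2. Filled red points passed an adjusted p under 0.05: Hivep2 in APP control against WT control, and Aff3, Aff4 and Hivep2 in APP anti-miR-mix against WT control. No member passed between the 2 APP groups.

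The third comparison set the treated APPPS1-21 mice beside the wild types: APP anti-miR-mix against WT control. It shares its wild-type libraries with the first comparison and its treated libraries with the second. Here 3 of the 7 members passed, all lower, against 8.95% of all genes in either direction and 3.36% called lower. Aff3 fell by 18.5%, Hivep2 fell by 13.0% and Aff4 fell by 12.1%.

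For Aff3, 6 of the 7 APP anti-miR-mix libraries lay below every wild-type library, and APP anti-miR-mix 3 (2090) lay inside their range. The log2 fold change was -0.30 ± 0.059 (95% interval -0.41 to -0.18), with adjusted p of 3.67e-05 by DESeq2 and 0.00327 by edgeR, and an exact permutation p of 0.00233. It passed in all 19 fits that left out 1 library (-0.33 to -0.27). Within the 4 shared adjustment numbers the difference was -0.44 to -0.16 on the log2 scale.

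Hivep2 in APP anti-miR-mix had lowest, median and highest normalized counts of 10518, 10770 and 12506, and 6 of 7 libraries lay below every wild-type library. Its log2 fold change was -0.20 ± 0.059, with adjusted p of 0.0119 by DESeq2 and 0.0482 by edgeR. It was short of the threshold without WT control 4 (DESeq2 adjusted p = 0.0619), without WT control 6 (0.052) and without WT control 5 and APP anti-miR-mix 6 together (0.0618). Within the shared adjustment numbers it was -0.35 to -0.045, and with that number as a factor the DESeq2 adjusted p was 0.0516.

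Aff4 had 6534, 7118 and 7641, and 4 of 7 libraries lay below every wild-type library. This was a log2 fold change of -0.19 ± 0.062, with adjusted p of 0.0326 by DESeq2 and 0.078 by edgeR. Its call rested on single libraries: the DESeq2 adjusted p was 0.0803, 0.0721, 0.0557 and 0.0718 without APP anti-miR-mix 1, 2, 3 and 6, and 0.122, 0.074 and 0.134 without WT control 4, 5 and 6. It was 0.142 without WT control 5 and APP anti-miR-mix 6 together.

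The other 4 members did not pass in this comparison. Aff1, with lowest, median and highest normalized counts of 714.7, 873.5 and 985.9 in APP anti-miR-mix, had a log2 fold change of 0.11 (-0.041 to 0.26). Aff2 was at -0.11 (-0.29 to 0.080) and Hivep1 at 0.044 (-0.18 to 0.27). Hivep3, with counts of 2940, 3291 and 3651, was at -0.098 (-0.22 to 0.022). These intervals all include 0. In this comparison too all 10 neuronal markers were below 0 (median log2 -0.13, with Gad1 lower), their sum in APP anti-miR-mix was 307404 to 327792, and 7 of the 8 microglial markers were higher, with a sum of 22525 to 35211. Of the endothelial markers 3 of 5 were higher (sum 2468 to 3594), and of the astrocyte markers 1 of 6 (sum 157880 to 219980). All 5 plaque-associated microglia genes were higher (median log2 2.59), with a sum of 7136 to 13788 against 1061 to 2607 in WT control. No gene of the remaining lists passed, with medians of -0.19 for CA1 and 0.21 for CA3 pyramidal neurons, 0.0098 for dentate granule cells, -0.084 for oligodendrocytes, 0.019 for their precursors, 0.48 for blood and -0.31 for choroid plexus.

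Set side by side, the mean of APP anti-miR-mix lay between both controls for 4 members: Aff1 (856.6, between 793.3 and 921.7), Aff2 (295.0, between 318.5 and 268.5), Hivep2 (11124, between 12786 and 10916) and Hivep3 (3319, between 3553 and 3190). For Aff3 (1844) and Aff4 (7136) it lay below both controls, and for Hivep1 (2956) above both. Some of these places turned on single libraries. The log2 fold change of Hivep2 against APP control was below 0 without APP anti-miR-mix 3 (-0.0029) or APP control 2 (-0.0065). That of Hivep1 against WT control was below 0 without WT control 4 (-0.039). None of the differences from APP control passed the test.

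Genes of related pathways were counted from 4 lists and are called partner genes here. The fragile X list holds Fmr1 and genes related to it, not known partners of Aff2. Of the 40 genes 2 passed in APP control against WT control, a share near the 4.71% of all genes, and 3 passed with the mixture against WT control, where 8.95% of all genes did, so the counts show nothing particular to the partners. Of the 17 genes of the super elongation complex and P-TEFb, none passed in any comparison. Their median log2 fold change in APP control against WT control was -0.017, with 11 of 17 below 0, and their summed normalized count was 24474 to 25838 in WT control and 23917 to 25782 in APP control. The most abundant were Supt5, a subunit of the elongation factor DSIF (4964 in WT control, 4743 in APP control, log2 fold change -0.066), and Ccnt2, a cyclin T of P-TEFb (3636 and 3551, -0.034). Cdk9, the kinase itself, was at 1974 and 1952 (-0.017).

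Of the 9 NF-kB subunits and inhibitors, 1 rose in APP control. Nfkb1, which encodes p105 and p50, had 701.9 ± 72.8 normalized counts in WT control and 820.9 ± 74.1 with the transgenes (log2 fold change 0.23 ± 0.073, DESeq2 adjusted p = 0.0431). That call was lost in 12 of the 19 fits that left out 1 library (adjusted p up to 0.156, with a log2 fold change of 0.19 to 0.27 over all 19) and in 4 of 11 other alternatives, with edgeR (0.0868), with a linear term for the Xist level, with the whole number that the authors adjusted for as a factor and with only the 2 groups fitted (0.153). In APP anti-miR-mix it was at 831.4 ± 38.0 (0.25 against WT control, DESeq2 adjusted p = 0.00926), and this call held in all 19 such fits. Rela, the p65 subunit and the most abundant of the list, was at 797.6 and 875.4 in the control groups (log2 fold change 0.13, DESeq2 adjusted p = 0.436). The median of the list in APP control against WT control was 0.13, above the -0.012 of all genes.

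Of the 9 reported partners of the Schnurri proteins, 1 rose. Cebpa, a transcription factor of myeloid cells and fat, was at 396.0 ± 68.0 normalized counts for WT control, 729.4 ± 157 for APP control and 702.5 ± 165 for APP anti-miR-mix (0.88 and 0.82 above WT control on the log2 scale, DESeq2 adjusted p = 2.5e-05 and 3.15e-05). The most abundant were Smad5, a transducer of BMP signals (log2 fold change 0.033), and Jun (0.029), and the median of the list was 0.0051. Microglial markers rose in the same comparisons, as given above, and their part in the changes of Cebpa and Nfkb1 was not tested.

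Of the 5 genes related to fragile X, none passed in APP control against WT control, and 1 fell with the mixture relative to the wild types. This was Cyfip2, an FMRP-interacting protein that links it to actin, at 33568 ± 1406 normalized counts for WT control, 30488 ± 2024 for APP control and 29896 ± 2133 for APP anti-miR-mix (-0.17 ± 0.053 on the log2 scale for the last, DESeq2 adjusted p = 0.0226). It passed in 13 of the 19 fits without 1 library (adjusted p 0.00486 to 0.0758) and in 7 of 11 other alternatives, but not with edgeR (0.0961), with limma on the deposited table, with the term for Xist or without WT control 5 and APP anti-miR-mix 6 together. Its paralog Cyfip1 was at 3966, 4118 and 4019 and did not pass. Between the 2 APP groups no gene of the 4 lists passed.

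**Figure D4:**
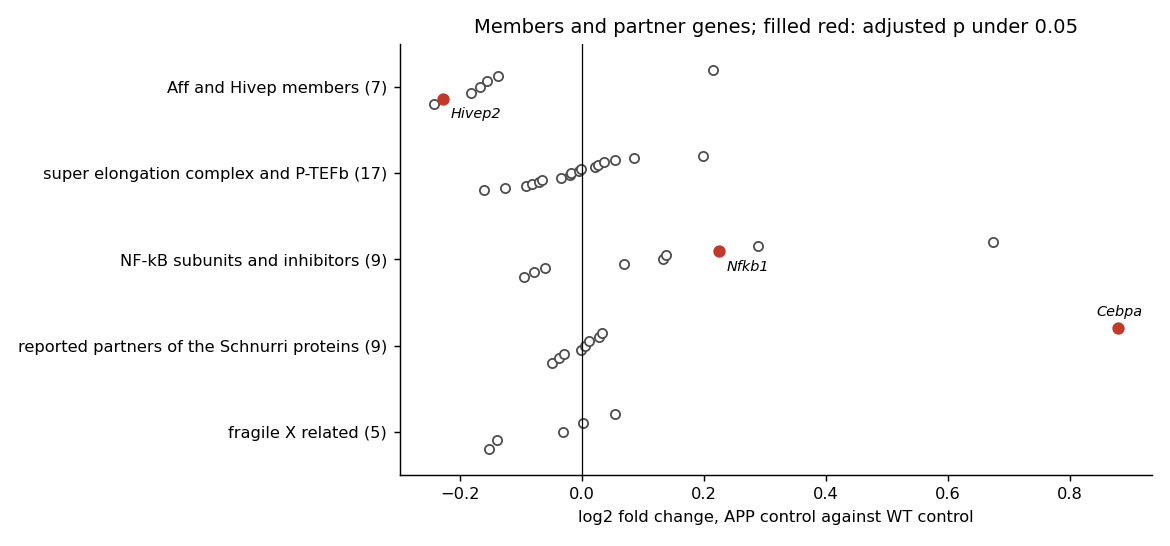
Log2 fold change in APP control against WT control for the members and the 4 lists of partner genes, 1 point per gene, with the number of genes in brackets. Filled red points passed an adjusted p under 0.05: Hivep2 (-0.23), Nfkb1 (0.23) and Cebpa (0.88); the 17 genes of the elongation complex lie around 0.

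The variation of each member among libraries of the same group was compared with that of 12765 genes with a mean normalized count of at least 100, as Pearson's r over the 19 libraries of log2 values centred on the group means. Both genes of a pair were measured in the same libraries, which differ in depth and marker sums, so each r also carries those differences. The nearest genes were picked as the highest of all, and r is a description. Hivep2 was nearest to Atrn (r = 0.93), which encodes attractin, and to Ncor1 (0.89), a nuclear corepressor. Hivep1 was nearest to Lgi2 (0.95) and Cobl (0.95), and Hivep3 to Cacfd1 (0.92) and Gtf3c1 (0.91). Aff3 was nearest to Kcnj6 (0.90), a potassium channel, and Sort1 (0.89), the sorting receptor sortilin. By Spearman's rank correlation these were 0.74 for Kcnj6 and 0.90 for Sort1. Aff2 was nearest to Ank2 (0.89) and Tanc2 (0.88), which encode neuronal scaffold proteins, and Aff1 to Homer3 (0.89) and Tmem131l (0.89).

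No member was among the nearest genes of another. Of the pairs of members, Aff3 and Hivep2 were the most alike (r = 0.67), with 248 of 12765 genes nearer to Aff3 than Hivep2 was. By r the next was Aff4 and Hivep2 (0.64), where 2060 genes were nearer to Aff4. The most opposed were Aff1 and Hivep1 (-0.65) and Aff1 and Aff2 (-0.57). Over the 21 pairs r was of both signs.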

How the data were processed

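Reads of 50 nt were aligned by the authors to mm10 with STAR 2.5.2b and counted with featureCounts (Subread 1.5.1), after FastQC 0.11.5, per the submitters' processing notes. The deposited values used are raw read counts per Ensembl gene and library, with no normalization. The annotation release and the strand setting of the counting were not given in the sources used here. Symbols, positions and exon lengths came from GENCODE M21 on GRCm38, which matched 48349 of 48709 identifiers.

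Genes were kept that reached 5 counts in 50% or more of the libraries, a filter that all 7 members passed. Counts were fitted with DESeq2 1.42.0 in R 4.3.3, the tool the study names, with the 3 groups in a single model chosen here, Wald tests, unshrunken log2 fold changes and Benjamini-Hochberg adjustment over all genes with a value. SDs and permutation tests are over libraries, with log2(normalized count + 1) for the latter. The labels number the libraries without naming animals, so p-values measure the spread between these samples. The alternatives were edgeR 4.0.16, other filters, single libraries left out, covariates, and limma 3.58.1 on a deposited table of log2 values, which the authors had normalized and adjusted for a whole number per library. Of the covariates, Xist had only 6 to 13 counts per library in WT control, 7 to 20 in APP control and 6 to 23 in APP anti-miR-mix. Its term therefore followed values near the floor and cannot be read as an adjustment for sex. The count fits were tested on simulated data, where DESeq2 recovered more of the changed genes than edgeR and made more false calls, above its nominal rate. Calls that DESeq2 alone makes are therefore less certain. The simulated counts used dispersions estimated by edgeR, so the ranking of the tools may not carry over to these libraries.

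The members and lists were chosen with earlier results of these data known. Genes named are the members, partner genes that passed, the 2 most abundant of each partner list, the 2 genes most like each member (those of Aff4 are not reported here), overlapping genes, Thy1 and App. Gad1, Gad2, Gfap, Cdk9, Xist and the CA1 marker genes were named outside that rule. Replicate numbers were not taken to pair the samples, and whether same-numbered samples were prepared together was not tested.

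Depth was 217 to 419 reads per library for Aff2 and 8160 to 16335 for Hivep2, and the spread between libraries was larger than counting error. No 2 libraries of a group agreed within sampling noise (lowest chi-square per gene 4.62), so none was taken as a repeat deposit, which does not show that they came from separate animals.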

Additional observations from a re-analysis of the deposited data

Results flagged for a closer look

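Within 21 sets of values (7 members in 3 groups), 2 libraries stood farther from the others of their group than Dixon's test allows at 95%, and chance alone flags about 1 in 20 sets. APP anti-miR-mix 4 had 2311 normalized counts of Hivep1, against 2864 to 3201 in the other libraries of its group. Without it the log2 fold change of Hivep1 was 0.26 against APP control and 0.096 against WT control, and neither passed (DESeq2 adjusted p = 1.0 and 0.749). APP anti-miR-mix 7 had 347.8 normalized counts of Aff2, against 266.7 to 300.9. Without it the log2 fold change of Aff2 was 0.092 against APP control and -0.15 against WT control, and neither passed (DESeq2 adjusted p = 1.0 and 0.412).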

How the results depend on the processing

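Of 630 refitted values of the members' fold changes, 598 kept their direction and their side of the threshold, 4 changed sign and 28 crossed the threshold. In APP control against WT control the number of members called was 1 to 3 with single libraries left out, 2 with a linear term for Xist or with limma on the deposited table, 3 with the replicate block, 3 without WT control 1 and 5 together and 2 without WT control 5 and APP anti-miR-mix 6 together. The genes called over the whole table moved as well: 666 to 1209 with single libraries left out, 1090 with the Xist term, 1062 with limma, 1222 with the block, 1176 without WT control 1 and 5 and 857 without WT control 5 and APP anti-miR-mix 6, against 908 of 19297. The members that joined Hivep2 were Aff1 with the Xist term (DESeq2 adjusted p = 0.0284), with limma (limma adjusted p = 0.0395) and, with Aff3, under the block (0.0488 and 0.0477), Aff2 and Hivep3 without WT control 1 and 5 together (0.036 and 0.0493) and Hivep3 without WT control 5 and APP anti-miR-mix 6 together (0.0253). With single libraries left out they were Aff1, Aff2, Aff3 or Hivep3. Against WT control, APP anti-miR-mix had 1 to 3 members called with single libraries left out and 1 without WT control 5 and APP anti-miR-mix 6 together, beside 1169 to 2012 and 1259 genes called over the whole table, against 1727. Between the 2 APP groups no member was called in any fit, and the genes called were 0 to 3 with single libraries left out, 4 with the Xist term, 3 with only the 2 groups fitted, 1 with the replicate block and 1 without WT control 1 and 5 together. Of the 40 partner genes, 1 to 3 were called in APP control against WT control with single libraries left out and 1 with the Xist term, with the adjustment number as a factor, with edgeR or with only the 2 groups fitted. With the mixture against WT control 5 were called without WT control 1 and 5 together. The signs that changed belonged to fold changes near 0: Hivep2 with the mixture against APP control (-0.0065 to 0.064 with single libraries left out, below 0 without APP anti-miR-mix 3, at -0.0029, and without APP control 2) and Hivep1 with the mixture against WT control (-0.021 with the Xist term, -0.039 to 0.12 with single libraries left out and below 0 without WT control 4). The causes were not tested. Same-numbered libraries of different groups correlated at -0.125 to 0.347 after centring, not above 0.1 in every pair, so the numbers were not taken to pair the samples. The mean correlation with libraries of other numbers was -0.108 to 0.0727, and in most pairs the same-numbered value was the higher. Whether the numbers share a preparation was not tested. Of 21 exact permutation tests, 9 had an unadjusted p under 0.05: in APP control against WT control Aff1 (0.013), Aff2 (0.0411), Aff3 (0.0108), Hivep2 (0.00433) and Hivep3 (0.0173), with the mixture against WT control Aff3 (0.00233), Aff4 (0.0117) and Hivep2 (0.00466), and between the 2 APP groups Hivep1 (0.049). No seed match was left with 8mer sites alone.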
